A study of Mus musculus with 9 samples.

Results

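The level of 8 genes used as markers of the forebrain and thalamus was followed across 9 mouse midbrain RNA libraries. The genes were taken by symbol from a fixed list (Slc17a7, Neurod6, Neurod2, Tbr1, Emx1, Prox1, Nrgn and Tcf7l2), and they are 8 of the 26602 genes counted in at least 1 library. These genes and the gene lists set beside them below were chosen with earlier results of these data known. The libraries came from 4 DJ-1+/+ (WT) mice and 5 DJ-1-/- (DJ-1 KO) mice, aged 3 to 4 months per the study's methods, and each is 1 animal's tissue block from the midbrain with the substantia nigra. DJ-1 is the product of Park7. The mutants were homozygous for a targeted germline allele carried in every tissue, the line had been backcrossed to C57BL/6, and the animals received no treatment per the labels. The 3' ends of polyadenylated RNA were sequenced and counted by molecular identifier, so that 1 count is meant to stand for 1 tagged molecule. The highest count of any gene was 1040 to 1359 per library, and the 10 most abundant genes held 0.585% to 0.693% of the counts. How far identifiers ran out for abundant genes was not tested. Levels are given in cpm, which is the count of a gene divided by the library's total and multiplied by 1000000.

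The excitatory neurons of the cortex and hippocampus load glutamate into vesicles with the transporter encoded by Slc17a7, whereas those of the thalamus and midbrain mainly use Slc17a6. The identity of cortical excitatory neurons is set in development by a chain of transcription factors, in which Emx1 marks the progenitors of the dorsal forebrain, the basic helix-loop-helix factors Neurod2 and Neurod6 accompany differentiation and Tbr1 marks deep-layer and early-born neurons. Prox1 is the homeobox factor of dentate granule cells and is also found in other neurons and in lymphatic endothelium, Nrgn is a postsynaptic calmodulin-binding protein abundant in forebrain neurons, and Tcf7l2 is a Wnt pathway transcription factor that stays on in adult thalamic neurons. None of these genes is strictly confined to the region it is used to mark.

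The bases just upstream of the annotated start are shown for 3 of the genes, because Neurod6 and Neurod2 had like levels across the libraries and Tcf7l2 differed from both. They are read 5′ to 3′ on the gene's strand from RefSeq (GRCm38.p6), where all 8 genes have an entry and Prox1 and Tcf7l2 each have 2. The stretches are chr6:55681264-55681513 (minus strand) for Neurod6, chr11:98329649-98329895 (minus strand) for Neurod2 and chr19:55741560-55741809 (plus strand) for the first start of Tcf7l2. Capitals mark each match to the E-box CANNTG, the letters that basic helix-loop-helix factors recognise, which reads the same on both strands.
Neurod6: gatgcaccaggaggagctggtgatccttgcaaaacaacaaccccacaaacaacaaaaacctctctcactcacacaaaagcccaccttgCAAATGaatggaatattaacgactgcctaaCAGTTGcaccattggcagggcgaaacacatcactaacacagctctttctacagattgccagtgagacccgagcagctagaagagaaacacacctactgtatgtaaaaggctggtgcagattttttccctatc
Neurod2: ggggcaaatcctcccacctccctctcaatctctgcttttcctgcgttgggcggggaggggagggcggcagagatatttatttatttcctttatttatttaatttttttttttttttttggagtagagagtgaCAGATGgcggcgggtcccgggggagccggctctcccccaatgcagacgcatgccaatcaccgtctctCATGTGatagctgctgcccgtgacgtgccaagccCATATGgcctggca
Tcf7l2: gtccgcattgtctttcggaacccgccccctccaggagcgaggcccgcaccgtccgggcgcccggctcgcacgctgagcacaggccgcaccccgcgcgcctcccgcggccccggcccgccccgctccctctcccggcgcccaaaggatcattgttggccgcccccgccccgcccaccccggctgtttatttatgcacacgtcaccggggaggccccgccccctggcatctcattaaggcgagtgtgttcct
The Neurod6 stretch holds 2 matches and that of Neurod2 holds 3. That of Tcf7l2 holds 0, and its bases are 72.8% G or C against 46.0% for Neurod6 and 53.0% for Neurod2. An E-box was present in 66.2% of the 32851 RefSeq windows of 250 bases upstream of a start, so a match is common. Among the other markers, the windows of Slc17a7, Tbr1, Emx1 and Nrgn hold 1 match each, and the 2 windows of Prox1 hold 2 and 0. Matches were thus not limited to the Neurod genes, and the link of these letters to the levels was not tested. The T-box letters AGGTGT, searched on both strands, were found in Neurod6 and in 11.8% of all windows. These matches are descriptions of letters and not of bound sites.

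Library totals ran from 841974 to 886085 counts in DJ-1+/+ mice and from 967751 to 1098125 in DJ-1-/- mice, so every mutant library was deeper. A limit of 3 counts, which is 2.73 to 3.56 cpm, was set, and a count at or under it was not told from 0. The 95% interval of a count of 0 reaches somewhat higher, to 4.38 cpm for Emx1 in DJ-1+/+ mouse 1. Intervals on a single library cover counting error only. Park7 was at 157, 119, 131 and 133 cpm in DJ-1+/+ mice 1 to 4 and at 23.0, 26.4, 14.4, 19.6 and 18.5 cpm in DJ-1-/- mice 1 to 5, a log2 fold change of -2.71 ± 0.15 (SE, edgeR quasi-likelihood test, adjusted p = 7.44e-08), which matches the labels. The dopaminergic neuron genes Th and Slc6a3 were counted in every library, at 33.9 to 115 cpm for Th and 23.3 to 130 cpm for Slc6a3. Markers of neighbouring tissue were uneven. The cerebellar granule cell gene Gabra6 was at 121 cpm in DJ-1+/+ mouse 1 and at most 2.33 cpm elsewhere, and Ttr, a choroid plexus product, was highest in DJ-1+/+ mouse 4 (386 cpm) and DJ-1+/+ mouse 1 (216 cpm) against 28.4 to 134 cpm elsewhere.

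The first comparison asked whether loss of DJ-1 altered the markers. None of the 7 genes with enough counts to be tested differed between genotypes at an unadjusted p below 0.05, where 2.82% of the 18127 genes tested did, and none passed after adjustment, where 1 gene, Park7, did (0.00552%). The values of the 2 genotypes overlapped for all 8 genes, and 1.25% of tested genes had values without overlap. With shares this low over all genes, no call among so few genes was the likely outcome, so these counts are not particular to the markers. The level of most markers differed from library to library within each genotype, and the genes did not share 1 pattern. Tcf7l2 was high in DJ-1+/+ mouse 4 and DJ-1-/- mouse 5, and Neurod6 and Neurod2 were lowest in DJ-1+/+ mouse 4. Nrgn and Tbr1 were lowest in DJ-1+/+ mice 1 and 3 and DJ-1-/- mouse 1, as a separate low set for Nrgn only, and Prox1 was nearly level. In whole tissue, fewer cells of a type and less RNA per cell cannot be told apart.

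**Figure D1:**
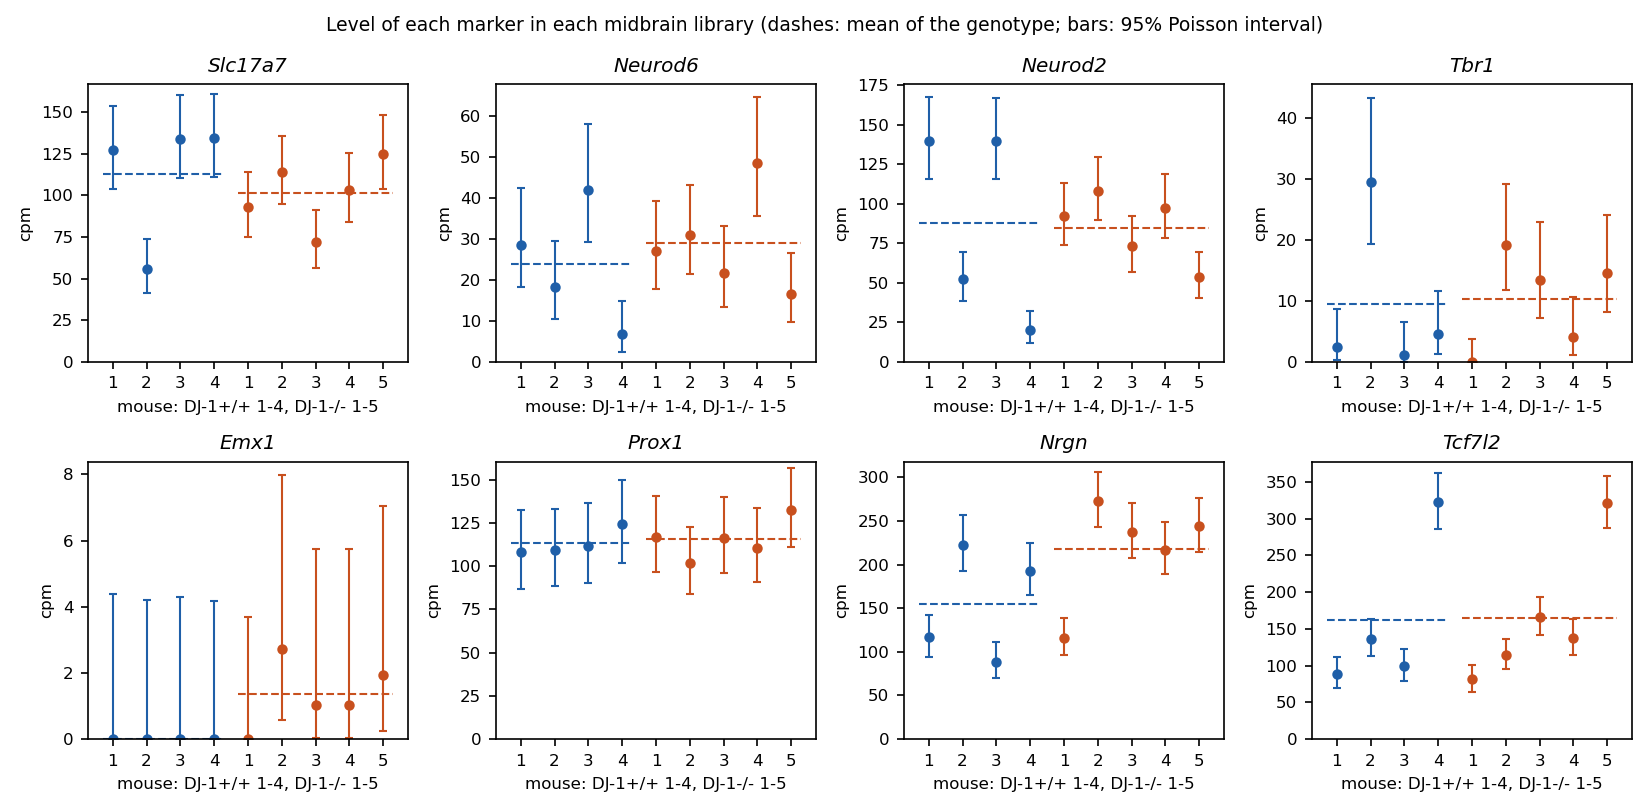
Level of each of the 8 marker genes (vertical axis, cpm, from 0) in each library (horizontal axis, blue points for DJ-1+/+ mice 1 to 4 and orange points for DJ-1-/- mice 1 to 5). Bars are 95% Poisson intervals of each count and dashed lines are genotype means, and a reader should see that Tcf7l2 reaches 323 and 322 cpm in 1 mouse of each genotype while Prox1 stays between 102 and 133 cpm.

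Slc17a7, on chromosome 7 (GRCm38, 45163949 to 45176142, plus strand, ENSMUSG00000070570), encodes the vesicular glutamate transporter of cortical neurons. It was at 127, 55.7, 134 and 134 cpm in DJ-1+/+ mice 1 to 4 and at 93.1, 114, 72.2, 103 and 125 cpm in DJ-1-/- mice 1 to 5. The value of DJ-1+/+ mouse 2 was the lowest of all 9 and lay apart from its group, with a 95% interval of 41.2 to 73.6 cpm. Means were 113 ± 38.2 cpm (SD, n = 4) and 101 ± 20.1 cpm (SD, n = 5), a log2 fold change of DJ-1-/- over DJ-1+/+ of -0.15 ± 0.20 (SE, 95% interval -0.57 to 0.28). Neither edgeR (p = 0.481) nor the exact two-sided permutation test of mean cpm (p = 0.571, where the smallest p this design can give is 0.0159) separated the genotypes. This rested on DJ-1+/+ mouse 2, since without it the log2 fold change was -0.38 and the unadjusted edgeR p was 0.0133.

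The other transporters of the family were set beside it. Slc17a6, the form of thalamic and midbrain neurons, was steady at 192 to 258 cpm, with its highest values in DJ-1-/- mouse 5 (258 cpm) and DJ-1+/+ mouse 4 (231 cpm), and its log2 fold change was 0.015 ± 0.10 (SE). Slc17a8, found in scattered neurons including those of the raphe, was lowest in those same libraries (2.92 and 4.51 cpm) against 11.8 to 38.4 cpm in the other 7. Both of the 2 genes were tested and 0 passed an unadjusted p of 0.05, with a median log2 fold change of 0.08 beside 0.01 over all tested genes. Slc17a7 was at 125 and 134 cpm in these mice, within the counting intervals of DJ-1+/+ mice 1 and 3.

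Neurod6, on chromosome 6 (GRCm38, 55677822 to 55681263, minus strand, ENSMUSG00000037984), encodes a factor of differentiating and mature excitatory neurons. It was at 28.5, 18.2, 41.9 and 6.77 cpm in DJ-1+/+ mice and at 27.0, 31.0, 21.7, 48.6 and 16.6 cpm in DJ-1-/- mice. DJ-1+/+ mouse 4 was lowest, with 6 counts, followed by DJ-1-/- mouse 5 with 17 counts, and the genotypes overlapped over most of their range. Means were 23.8 ± 15.0 cpm (SD, n = 4) and 29.0 ± 12.2 cpm (SD, n = 5), and the log2 fold change was 0.28 ± 0.38 (SE, 95% interval -0.53 to 1.09, edgeR p = 0.470, exact permutation p = 0.587). Without DJ-1+/+ mouse 4 it was -0.03.

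Neurod2, on chromosome 11 (GRCm38, 98325415 to 98329648, minus strand, ENSMUSG00000038255), is the close relative of Neurod6 that acts in synapse maturation. It was at 140, 52.3, 140 and 20.3 cpm in DJ-1+/+ mice and at 92.1, 108, 73.2, 97.1 and 53.6 cpm in DJ-1-/- mice. The lowest value was again in DJ-1+/+ mouse 4 (95% interval 12.0 to 32.1 cpm), next came DJ-1+/+ mouse 2 and DJ-1-/- mouse 5, whose intervals overlap, and the DJ-1+/+ values enclosed all of those of DJ-1-/- mice. Means were 88.1 ± 61.2 cpm (SD, n = 4) and 84.9 ± 21.6 cpm (SD, n = 5), with a log2 fold change of -0.04 ± 0.35 (SE, 95% interval -0.78 to 0.70, edgeR p = 0.908, exact permutation p = 0.952). Its sign turned when any of DJ-1+/+ mice 1 and 3 or DJ-1-/- mice 3 and 5 was left out.

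Both Neurod genes varied more than most genes. The biological coefficient of variation fitted by edgeR was 35.6% for Neurod6 and 37.1% for Neurod2, and only 11.9% and 10.7% of tested genes had a higher dispersion. Across the 9 libraries their log2(cpm + 1) values had a Pearson r of 0.92 (Spearman rho 0.83), and r was 0.93 without the 2 libraries farthest from the Neurod6 median and 0.70 in the 7 libraries other than DJ-1+/+ mouse 4 and DJ-1-/- mouse 5. The points share library depth and tissue block, so these values describe the libraries only. By the same measure over 10770 genes, the nearest to Neurod2 were Tmem178 (r = 0.97), Crhr1, a receptor for corticotropin-releasing hormone (r = 0.97), and Mab21l2, a gene of midbrain and eye development (r = 0.96), which ran from 4.51 cpm in DJ-1+/+ mouse 4 to 76.8 cpm in DJ-1+/+ mouse 3. The nearest to Neurod6 were the lysosomal sulfatase gene Ids (r = 0.99), Elmod2 (r = 0.97) and the calpain subunit gene Capns1 (r = 0.96), all lowest in DJ-1+/+ mouse 4.

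The genes that precede or neighbour these factors in the glutamatergic cascade were mostly scarce. Of 10 genes in that list, 8 were tested and 3 were at or under 3 counts in every library, among them Neurog1 and Tbx21. At an unadjusted p below 0.05, 0 genes were higher in DJ-1-/- mice and 2 were lower (background 1.27% lower), namely Pax6 and Eomes, and neither passed adjustment. Eomes was at 24.9 cpm in DJ-1+/+ mouse 1 and at most 2.27 cpm elsewhere, and Pax6 was at 96.2 cpm in that mouse and 35.1 to 53.5 cpm elsewhere. Neurod1, which cerebellar granule cells also express, had the lowest log2 fold change among the 4 genes of the list with a mean of at least 10 counts (-0.89 ± 0.43 SE, which did not pass) and was likewise highest in DJ-1+/+ mouse 1 (120 cpm against 14.0 to 46.3 cpm). This is the library with the high Gabra6 value, whose part in the result was not tested. Neurod6 (28.5 cpm) was not highest there, and Neurod2 (140 cpm) was as high in DJ-1+/+ mouse 3.

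Tbr1, on chromosome 2 (GRCm38, 61802930 to 61814114, plus strand, ENSMUSG00000035033), encodes a T-box factor of deep-layer cortical neurons. It had 2, 26, 1 and 4 counts in DJ-1+/+ mice and 0, 21, 13, 4 and 15 counts in DJ-1-/- mice, which is 2.38, 29.5, 1.16 and 4.51 cpm and 0, 19.1, 13.4, 4.13 and 14.6 cpm. DJ-1+/+ mice 1 and 3 and DJ-1-/- mouse 1 were at or under the limit of 3 counts, and DJ-1+/+ mouse 2 was highest. Means were 9.40 ± 13.5 cpm (SD, n = 4) and 10.3 ± 7.91 cpm (SD, n = 5), and the log2 fold change was 0.13 ± 0.77 (SE, 95% interval -1.50 to 1.77, edgeR p = 0.866, exact permutation p = 0.952). The fitted variation was 78.6%, and 0.833% of tested genes had a higher dispersion. Without DJ-1+/+ mouse 2 the log2 fold change was 1.88 with an unadjusted edgeR p of 0.0415, so that the value depended on 1 library.

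Emx1, on chromosome 6 (GRCm38, 85187438 to 85204462, plus strand, ENSMUSG00000033726), marks the dorsal forebrain lineage. It had 0 counts in all 4 DJ-1+/+ mice and 0, 3, 1, 1 and 2 counts in DJ-1-/- mice. Its 7 counts in all were under the minimum of 10 for the edgeR test. Every library was at or under 3 counts, so no fold change is given and the exact permutation p of 0.0794 falls on values that this depth cannot tell from 0. Emx1 was therefore at the limit of detection in these libraries, while Slc17a7, Neurod2 and Nrgn were counted well above it.

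Prox1, on chromosome 1 (GRCm38, 190118035 to 190170714, minus strand, ENSMUSG00000010175), is overlapped on the other strand by Gm28172 and Prox1os, and use of strand in the counting is not given in the sources used here. It was at 108, 109, 112 and 124 cpm in DJ-1+/+ mice and at 117, 102, 117, 111 and 133 cpm in DJ-1-/- mice. All 9 values lay within 1.30-fold of each other. Means were 113 ± 7.42 cpm (SD, n = 4) and 116 ± 11.2 cpm (SD, n = 5), a log2 fold change of 0.03 ± 0.09 (SE, 95% interval -0.17 to 0.22, edgeR p = 0.767, exact permutation p = 0.698). The fitted variation was 4.39%, with 85.2% of tested genes having a higher dispersion, and a count of this mean has a Poisson variation of 9.59%. Prox1 was highest in DJ-1-/- mouse 5 and DJ-1+/+ mouse 4, the libraries with the highest Tcf7l2, but its intervals in all 9 libraries overlapped. Among its nearest genes were Golt1b (r = 0.96) and Stard9 (r = 0.93). These r values are among the highest of 10770 genes. Because the Prox1 intervals overlapped in all 9 libraries, they cannot be told from a likeness in counting error.

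Nrgn, on chromosome 9 (GRCm38, 37544492 to 37552904, minus strand, ENSMUSG00000053310), encodes neurogranin. It was at 116, 223, 88.4 and 193 cpm in DJ-1+/+ mice and at 116, 273, 237, 217 and 244 cpm in DJ-1-/- mice. DJ-1+/+ mice 1 and 3 and DJ-1-/- mouse 1 formed a low set, whose highest 95% bound of 142 cpm lay under the lowest bound of 165 cpm among the other 6 libraries. Means were 155 ± 63.1 cpm (SD, n = 4) and 217 ± 60.1 cpm (SD, n = 5), a log2 fold change of 0.48 ± 0.23 (SE, 95% interval -0.01 to 0.98). The unadjusted edgeR p was 0.0545 (adjusted p = 1.0) and the exact permutation p was 0.159. The direction was the same in 18 of 18 alternatives, but the call was not. The unadjusted p was 0.0116 without DJ-1+/+ mouse 2, 0.0287 without DJ-1+/+ mouse 4 and 0.00458 without DJ-1-/- mouse 1, and it was 0.205 without DJ-1+/+ mouse 3. By DESeq2 the unadjusted p was 0.170, and by edgeR with filterByExpr as the count filter it was 0.0698. With every gene of at least 1 count in the fit, the edgeR adjusted p was 0.0264. The log2 fold change was then 0.49, little changed, while 36 genes passed adjustment in place of 1.

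Nrgn and Tbr1 had their lowest values in the same 3 libraries, and among the other 6 libraries their Pearson r was 0.63 (Spearman rho 0.60). Tbr1 formed no separate low set, since DJ-1+/+ mouse 4 and DJ-1-/- mouse 4 had 4 counts each. Their intervals (1.23 to 11.6 and 1.13 to 10.6 cpm) overlapped those of the 3 lowest libraries. The genes nearest to Nrgn were the scaffold gene Iqgap2 (r = 0.98), the muscarinic receptor gene Chrm1 (r = 0.98) and Ddn, which encodes the postsynaptic protein dendrin (r = 0.97) and ran from 4.65 cpm in DJ-1+/+ mouse 3 to 99.3 cpm in DJ-1-/- mouse 2. Among the nearest to Tbr1 were Bend5 (r = 0.93) and the synaptic vesicle gene Synpr (r = 0.91), both lowest in DJ-1-/- mouse 1. Slc17a7 did not follow them, and in the 3 libraries with low Nrgn it was at 127, 134 and 93.1 cpm.

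The summed level of 27 other cortical and hippocampal genes was 1400, 1793, 1325 and 1711 cpm in DJ-1+/+ mice and 1403, 1866, 1680, 1638 and 1759 cpm in DJ-1-/- mice. It was lowest in the same 3 libraries as Nrgn, and in the other 6 its Pearson r was 0.62 with Nrgn and 0.75 with Tbr1. Over all 9 libraries its r was 0.60 with Tcf7l2, whereas it was -0.54 with Neurod2, -0.42 with Neurod6, -0.33 with Slc17a7 and 0.07 with Prox1. Of the 26 genes tested, 8 had their 3 lowest values in these libraries (30.8%), as 3.50% of all tested genes did, and they included Lhx2, Bcl11b and the kinase gene Camk2a. The 3 libraries were picked by the level of Nrgn, so this is a description. The pattern was not limited to cortical genes, since it held for 27.3% of the hypothalamic, 26.7% of the thalamic and 25% of the striatal genes tested, and the striatal sum was at 463, 428 and 472 cpm in these libraries against 551 to 804 cpm in the other 6. Between genotypes the fitted change was positive for 20 of the 26 genes and negative for 6, beside 9386 and 8741 of all 18127 tested genes. Genes of a list share the same libraries, so these are not separate results. The list had a median log2 fold change of 0.11 that ranged from -0.00 without DJ-1+/+ mouse 3 to 0.25 without DJ-1-/- mouse 1. The hippocampal gene Fibcd1 passed an unadjusted p of 0.05 (1 gene higher, 0 lower, background 1.55% and 1.27%), and the extremes among genes of sufficient count were Emx2 at 0.73 ± 0.61 (SE) and Fhl2 at -0.14 ± 0.32 (SE). Other tissue moved with these libraries too, since 14 oligodendrocyte genes summed to 2917, 3027 and 2971 cpm in the low set and to 2458 to 2733 cpm in the other 6, and their part in the result was not tested.

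No partner of neurogranin passed the test between genotypes. Among 9 genes for calmodulin, its kinases and related proteins, the fitted change was positive for 3 and negative for 6, 0 passed an unadjusted p of 0.05 and the median log2 fold change was -0.05. The highest was Camk2a (0.12 ± 0.24 SE), which is also in the cortical list, and the lowest was the calmodulin gene Calm2 (-0.11 ± 0.07 SE), at 290 to 360 cpm. Camk2a was at 108 to 120 cpm in the 3 libraries with low Nrgn and at 156 to 271 cpm in the others. Of the 9 genes, 4 (44.4%, beside 5.52% of all tested genes) had their 2 highest values in DJ-1+/+ mouse 4 and DJ-1-/- mouse 5, namely Camk2a, Camk2b, Pcp4 and Ppp3ca, and the list summed to 2737 and 2616 cpm there against 2302 to 2378 cpm elsewhere.

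Tcf7l2, on chromosome 19 (GRCm38, 55741820 to 55933654, plus strand, ENSMUSG00000024985), gave the clearest split between libraries. It was at 89.1, 136, 98.9 and 323 cpm in DJ-1+/+ mice and at 81.1, 115, 166, 137 and 322 cpm in DJ-1-/- mice. DJ-1+/+ mouse 4 (95% interval 286 to 362 cpm) and DJ-1-/- mouse 5 (288 to 358 cpm) stood above the third highest, DJ-1-/- mouse 3 (141 to 194 cpm), and the remaining 7 libraries overlapped between genotypes. Means were 162 ± 109 cpm (SD, n = 4) and 164 ± 93.3 cpm (SD, n = 5), with a log2 fold change of 0.01 ± 0.38 (SE, 95% interval -0.79 to 0.81, edgeR p = 0.973, exact permutation p = 0.857). It was 0.60 without DJ-1+/+ mouse 4, -0.40 without DJ-1-/- mouse 5 and 0.19 without both, an alternative chosen after the data were seen.

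The thalamic genes showed the same split. Their summed level over 15 genes other than Tcf7l2 was 1023, 1019, 820 and 2351 cpm in DJ-1+/+ mice and 781, 891, 1206, 942 and 2209 cpm in DJ-1-/- mice, and all 15 had their 2 highest values in DJ-1+/+ mouse 4 and DJ-1-/- mouse 5, as did 5.52% of all tested genes. The pair of libraries was picked by the level of Tcf7l2, so this too is a description. Gbx2, a homeobox factor of thalamic neurons, was at 35.0 and 31.2 cpm in these mice and at 1.03 to 13.4 cpm elsewhere, and Rora, a nuclear receptor of thalamic relay and other neurons, was at 356 and 339 cpm against 158 to 205 cpm. Tnnt1, which had the highest log2 fold change of the list (0.20 ± 0.66 SE), was at 142 and 147 cpm against 8.14 to 49.5 cpm, and Zic1, which had the lowest (-0.35 ± 0.18 SE), was at 238 and 230 cpm against 120 to 229 cpm. In the 7 other libraries Tcf7l2 and the sum still varied together (Pearson r 0.74, Spearman rho 0.61).

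Between genotypes the fitted change was positive for 3 thalamic genes and negative for 12, beside 9386 and 8741 of all 18127 tested genes. Of the thalamic genes 0 passed an unadjusted p of 0.05, and their median log2 fold change was -0.12. That median was 0.65 without DJ-1+/+ mouse 4, -0.59 without DJ-1-/- mouse 5 and 0.09 without both. The genes whose levels were most like that of Tcf7l2 were Gabbr2, a subunit of the GABA-B receptor (r = 0.99, 160 to 279 cpm), Bok, a member of the Bcl-2 family (r = 0.98, 31.0 to 108 cpm), and Rgs16, a regulator of G protein signalling that is also in the thalamic list (r = 0.98, 8.01 to 91.4 cpm). The libraries with high Tcf7l2 differed from each other in other tissue, since the choroid plexus genes summed to 1387 cpm in DJ-1+/+ mouse 4 and 414 cpm in DJ-1-/- mouse 5.

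**Figure D2:**
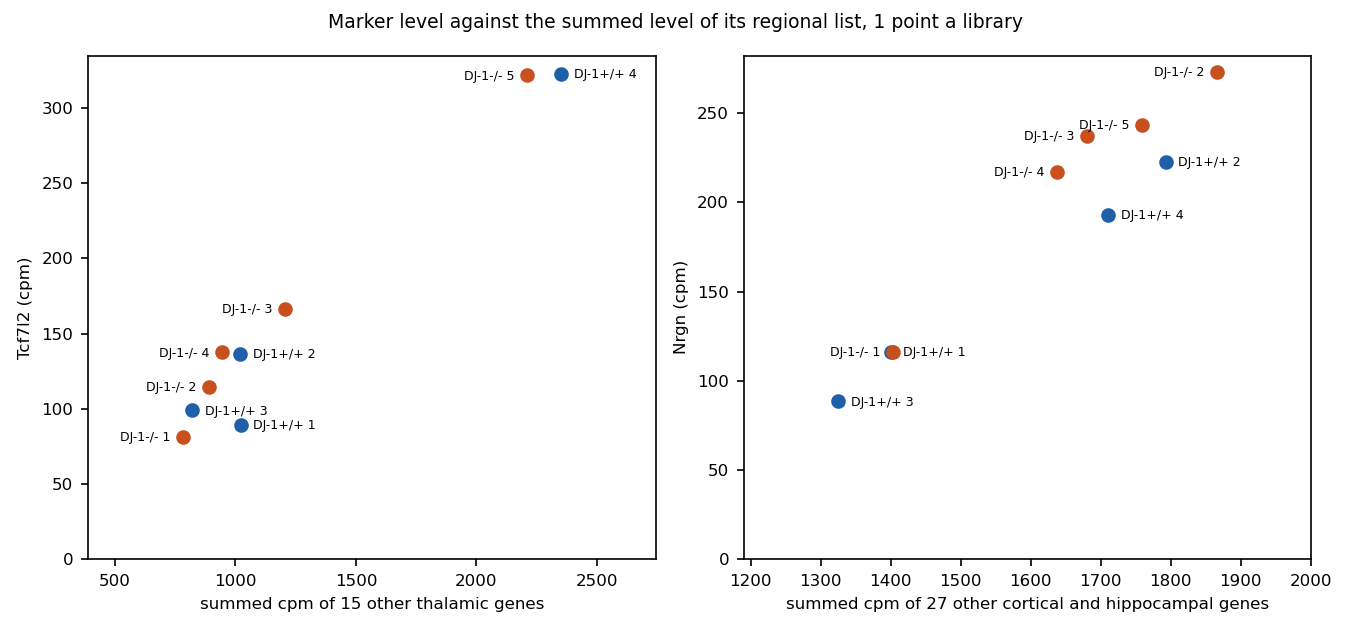
Tcf7l2 (left, cpm) against the summed cpm of 15 other thalamic genes, and Nrgn (right, cpm) against the summed cpm of 27 other cortical and hippocampal genes, with 1 point a library (blue DJ-1+/+, orange DJ-1-/-). On the left 1 mouse of each genotype stands apart above 2209 cpm on the horizontal axis, and on the right 3 libraries lie at 1325 to 1403 cpm with Nrgn at 88.4 to 116 cpm.

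As a Wnt pathway factor, Tcf7l2 was also set beside 15 genes of that pathway. The fitted change was positive for 7 and negative for 8, 0 passed an unadjusted p of 0.05 and the median log2 fold change was -0.02. Among the 10 genes with a mean of at least 10 counts the highest was Axin1 (0.07 ± 0.17 SE) and the lowest Lef1 (-0.29 ± 0.60 SE). Among them 5 of 15 (33.3%, beside 5.52% of all tested genes) had their highest values in DJ-1+/+ mouse 4 and DJ-1-/- mouse 5, namely Lef1, Axin2, Notum, Sp5 and Znrf3. Lef1, a related factor that is also in the thalamic list, was at 125 and 92.6 cpm there and at 9.50 to 32.0 cpm elsewhere. Axin2, a common target of the pathway, was at 59.8 and 56.5 cpm against 27.9 to 40.4 cpm, and Notum and Sp5 were counted at under 10 cpm throughout. Ctnnb1, which encodes beta-catenin, was at 265 and 240 cpm there and at 204 to 241 cpm elsewhere, so it did not share the split.

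Neurod6 and Neurod2 went the other way from Tcf7l2. In DJ-1+/+ mouse 4, where Tcf7l2 was highest, Neurod6 was at 6.77 cpm and Neurod2 at 20.3 cpm, and in DJ-1-/- mouse 5 they were at 16.6 and 53.6 cpm. In the 7 other libraries the Pearson r of Tcf7l2 was -0.62 with Neurod2 and -0.22 with Neurod6, so the relation rested largely on these libraries for Neurod6. Of the 21 pairs among the 7 tested genes, 5 had a Pearson r of at least 0.7 in size over all 9 libraries, and without DJ-1+/+ mouse 4 the number was 3.

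**Figure D3:**
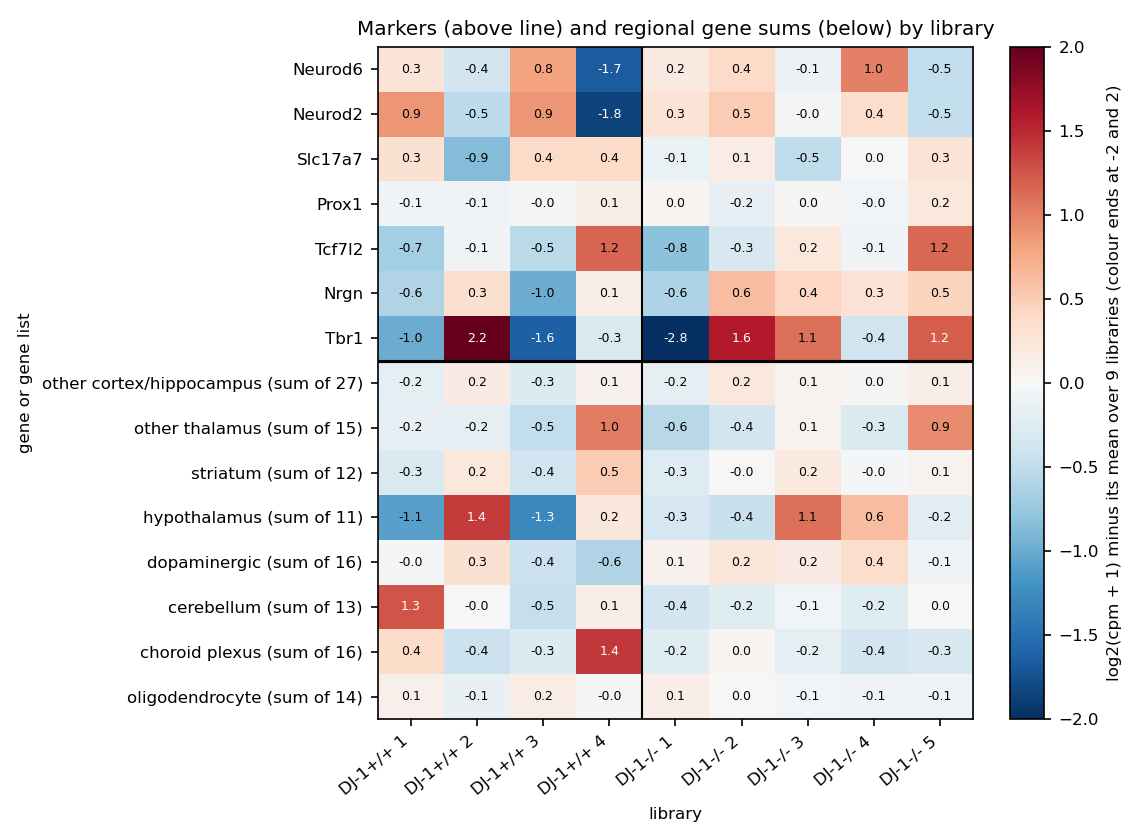
Difference of log2(cpm + 1) from its mean over the 9 libraries (colour and printed value) for 7 marker genes, above the black line, and for the summed cpm of 8 regional or cell type gene lists, below it, with 1 column a library. Red is above and blue below the gene's own mean. Tcf7l2 and the thalamic sum are red in DJ-1+/+ 4 and DJ-1-/- 5, and Nrgn and Tbr1 are blue in DJ-1+/+ 1, DJ-1+/+ 3 and DJ-1-/- 1. Tbr1 is also below its mean, by less, in DJ-1+/+ 4 and DJ-1-/- 4.

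Genes of other regions differed between libraries as well. The dopaminergic list had 6 of 16 genes higher in DJ-1-/- mice at an unadjusted p below 0.05, among them Th and Slc6a3, where 1.55% of all tested genes were, and summed to 625 to 1180 cpm in DJ-1+/+ and 900 to 1216 cpm in DJ-1-/- mice. The 6 include Pitx3, which was at or under 3 counts in every library but DJ-1-/- mouse 4. The sum of 1180 cpm was that of DJ-1+/+ mouse 2, and the other DJ-1+/+ mice were at 625 to 922 cpm. The cerebellar list had 8 of 13 lower, where 1.27% of all tested genes were, and summed to 447 to 1463 cpm against 468 to 620 cpm, with the top value in DJ-1+/+ mouse 1. The choroid plexus list had 9 of 16 lower (same background of 1.27%) and summed to 385 to 1387 cpm against 399 to 536 cpm. Its high sums were in DJ-1+/+ mouse 4 (1387 cpm) and DJ-1+/+ mouse 1 (669 cpm), while DJ-1+/+ mice 2 and 3 were at 385 and 430 cpm. None of these genes passed adjustment. The striatal list (12 genes, 0 higher and 1 lower by the same p, background 1.55% and 1.27%) had its highest sum of 804 cpm in DJ-1+/+ mouse 4, and the hypothalamic list (11 genes, 0 higher and 1 lower, same background) ran from 183 cpm in DJ-1+/+ mouse 3 to 1181 cpm in DJ-1+/+ mouse 2, the mouse with the lowest Slc17a7 and the highest Tbr1. Among 10 other midbrain neuron genes 0 passed in either direction. The part of these tissues in the marker levels was not tested.

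**Figure D4:**
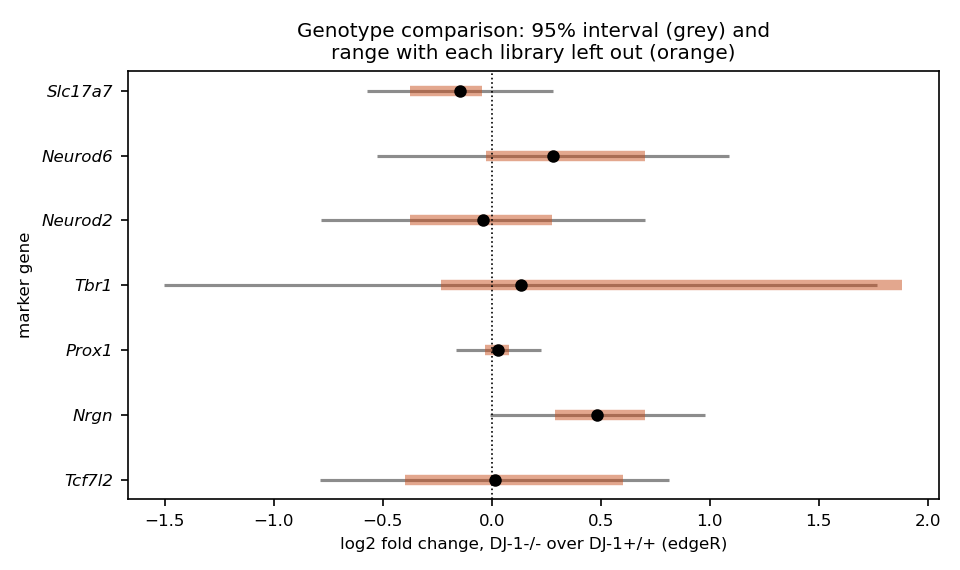
Log2 fold change of DJ-1-/- over DJ-1+/+ (horizontal axis, edgeR) for the 7 tested marker genes, with its 95% interval in grey and the range over leaving out each library in turn in orange. All 7 intervals include 0, that of Prox1 is the narrowest (-0.17 to 0.22), and the orange range of Tbr1 reaches 1.88.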

How the data were processed

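RNA was made from midbrain tissue with the substantia nigra of 9 mice and sequenced from the 3' end. Per the submitters' processing notes, fastp 0.20.0, STAR 2.7.3a, Subread with featureCounts 2.0.0 and UMI-tools 1.0.0 were used with GRCm38, and the authors deposited 1 table of raw UMI counts per gene for each library. A gene not listed in a table was taken as 0. The 26602 genes were joined by Ensembl identifier, 26576 of them with a name in GENCODE M21. Genes with at least 10 counts over all libraries (18127) were fitted with edgeR 4.0.16 (TMM scaling, quasi-likelihood test, Benjamini-Hochberg adjustment) under R 4.3.3, all 9 libraries and genotype as the only term. The fit was tested on simulated data with the same dispersion for every gene. Of 200 genes changed by a log2 of 1.5, edgeR recovered 196 after adjustment, and 8 unchanged genes passed. The markers had dispersions of 0.0019 to 0.617 and fitted changes of -0.15 to 0.48, so the simulation cannot show how the fit does on them. Mean cpm was compared by an exact two-sided permutation test over all 126 splits, whose code was checked against scipy 1.17.1 on random values. Levels used library totals. Similar genes were ranked by Pearson r of log2(cpm + 1) among tested genes with a mean of at least 20 counts, taking 3 per marker, of which some are not reported here. For each list the genes of highest and lowest fold change with a mean of at least 10 counts were named, together with Park7, Gabra6, Pcp2, Cbln3, Ttr, Th and Slc6a3. Others were named after their values were seen. The markers and lists were chosen with earlier results of these data known. The labels number separate animals but give no litter, and P values measure the spread between these libraries. Alternatives were RLE scaling, library totals, DESeq2 1.42.0, other count filters, counts thinned to 841974, Xist as a covariate, a replicate block and leaving out each library.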

Additional observations from a re-analysis of the deposited data

Results flagged for a closer look

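Of 30 groups of values examined for a sample far from the rest of its genotype, 8 were picked out. The nominal rate by chance is about 1 in 20. The groups share libraries and genes of the same region, and the genes were chosen with earlier results known. The number picked out can therefore not be read against that rate. Slc17a7 was at 55.7 cpm in DJ-1+/+ mouse 2 against 127 to 134 cpm in the other 3 DJ-1+/+ mice. In the same mouse Tbr1 was at 29.5 cpm against 1.16 to 4.51 cpm, and Slc6a3, the dopamine transporter gene, was at 130 cpm against 23.3 to 36.8 cpm. Slc6a3 was also low in DJ-1-/- mouse 1, at 58.1 cpm against 102 to 119 cpm in the other 4 DJ-1-/- mice.

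DJ-1+/+ mouse 1 stood apart for 3 cerebellar genes. Gabra6 was at 121 cpm there against 0 to 2.33 cpm in the other DJ-1+/+ mice, Pcp2, a Purkinje cell gene, was at 93.8 cpm against 0 to 2.33 cpm, and Cbln3, a granule cell gene, was at 151 cpm against 3.49 to 9.09 cpm. Gabra6 in DJ-1-/- mouse 2 was picked out at 0.911 cpm, which is 1 count against 0 in the other DJ-1-/- mice and under the limit of 3 counts.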

How the results depend on the processing

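At an unadjusted p below 0.05 the 511 genes of edgeR became 235 with DESeq2, 802 with every gene of at least 1 count, 338 with filterByExpr and 338 to 732 when 1 library was left out. After adjustment the 1 gene became 36 with every gene of at least 1 count, 8 with the replicate block, 2 without DJ-1+/+ mouse 4 and DJ-1-/- mouse 5 (chosen after the data were seen) and 1 to 2 when 1 library was left out. The number of marker genes called went from 0 to 2 with every gene of at least 1 count (Emx1 and Nrgn, and 1, Nrgn, after adjustment), to 1 (Nrgn) with the replicate block, with thinned counts and without both libraries, and to 0 to 3 when 1 library was left out, 3 without DJ-1+/+ mouse 2 (Slc17a7, Tbr1 and Nrgn). By the exact test it was 0 to 1 when 1 library was left out, namely Slc17a7 without DJ-1+/+ mouse 2 (p = 0.0357) and Emx1 without DJ-1-/- mouse 1 (p = 0.0286), and pairs with r of at least 0.7 in size numbered 3 to 6. The cause of these shifts was not tested.

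Signs turned for values near 0. The log2 fold change of Slc17a7 was 0.0149 with Xist as a covariate, that of Tbr1 was -0.26 without both libraries, and that of Prox1 was -0.0484 with thinned counts, where its difference in mean cpm was -3.09. Over leaving out 1 library the log2 fold change ran from -0.38 to -0.05 for Slc17a7, -0.0285 to 0.70 for Neurod6, -0.37 to 0.28 for Neurod2, -0.23 to 1.88 for Tbr1, -0.0319 to 0.0778 for Prox1, 0.29 to 0.70 for Nrgn, -0.40 to 0.60 for Tcf7l2 and -2.83 to -2.61 for Park7. The difference in mean cpm ran from -0.567 to 11.1 for Neurod6, -25.8 to 14.2 for Neurod2, -1.89 to 7.57 for Tbr1, -1.69 to 6.13 for Prox1 and -36.9 to 56.1 for Tcf7l2. The median of the cortical list ran from -0.00 to 0.25 and that of the thalamic list from -0.59 to 0.65.

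Replicate numbers did not pair the libraries, since the deviations of same-numbered libraries correlated at 0.290, 0.0565, -0.116 and -0.199, and only DJ-1+/+ mouse 1 had its own number as the best partner, while no mutant did. DJ-1-/- mouse 5 is the only library with its replicate number, so with the replicate block it adds nothing to the genotype term. In that fit the log2 fold change was 0.44 for Nrgn, which then passed an unadjusted p of 0.05. It was 0.16 for Neurod2, -0.029 for Prox1 and -0.33 for Tcf7l2, and 569 genes had an unadjusted p below 0.05. At this depth Emx1 could not be told from 0 in any library. The 10 most abundant genes held 0.585% to 0.693% of the counts, and how far molecular identifiers ran out for abundant genes was not tested.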
